A study of Mus musculus with 8 samples.

Results

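Expression of 10 genes of sterol sensing and sterol export was followed in livers from mice on a MASH-inducing diet: Nr1h3, which encodes the oxysterol receptor LXRα, its targets Abca1, Abcg1, Abcg5, Abcg8, Mylip, Lpcat3 and Pltp, and the cholesterol-handling genes Soat2 and Scarb1. They were found by symbol among the 52636 Ensembl genes of the count tables, through the GENCODE M21 annotation of GRCm38, and all 10 were found and passed the low-count filter. The libraries came from whole livers of 8 male wild-type C57BL/6J mice, 1 library per mouse. Of these, 4 mice received AAV8-TBG-GFP (AAV8-GFP, mice 303, 311, 314 and 315) and 4 received AAV8-TBG-AGXT (AAV8-AGXT, mice 308, 309, 316 and 319). Injection took place at 7 weeks of age. From 8 weeks of age all mice ate a NASH diet rich in fat, cholesterol and fructose, for 24 weeks, until the livers were taken. AAV8 is a liver-tropic viral vector and TBG a hepatocyte promoter, so the transgene is driven in hepatocytes and not in the other liver cells, whereas the RNA came from all of them. AGXT, human here, is the peroxisomal enzyme that turns glyoxylate into glycine and so keeps it from becoming oxalate. The comparison asks which sterol export genes differed between the livers with and without the extra AGXT.

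LXRα binds DNA together with a retinoid X receptor and is switched on by oxysterols, oxidized derivatives of cholesterol that build up when a cell holds too much of it. Its targets move cholesterol out of the cell: ABCA1 loads it onto lipid-poor apolipoprotein A-I, ABCG1 onto mature HDL, and ABCG5 and ABCG8, which work only as a pair, pump it from hepatocytes into bile. In the liver the same receptor also drives fatty acid synthesis through Srebf1, and in macrophages Abca1 and Abcg1 are its best known targets.

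The promoter sequences were read from RefSeq windows on GRCm38.p6, which run from 250 bases before to 50 bases after a transcription start and were found for 7 of the 10 genes, all but Abcg1, Soat2 and Scarb1. LXR binds a direct repeat of AGGTCA with 4 bases between the copies (DR4). The motif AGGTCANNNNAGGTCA was searched on both strands with up to 3 mismatches at its 12 fixed letters. Such matches are common, being held by 21.9% of 32851 windows, and of the 9 windows of these genes only that of Abca1 had one. In Abca1 it reads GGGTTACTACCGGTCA, at 67 to 52 bases before the start. Srebf1 and Fasn, which are LXR targets of fatty acid synthesis, are shown beside it because the same letters recur there. Both were picked after their values were seen. The letters GGGTTACTNNCGGTCA are those shared by the matches of Abca1 and Srebf1, with N where these differ. Searched then on both strands, they occurred in 3 windows of the 32851, those of Abca1, Srebf1 and Fasn. These windows make up 0.00913% of all. The windows of Abca1 and Srebf1 were certain to be found, because the letters were read from them, so the share does not measure how rare the recurrence is. In the sequences below the capitals mark the copies of the repeat, and the strand is the plus strand, opposite to the genes. The annotation places the stretches of Abca1 and Fasn before the gene and that of Srebf1 in an intron of its longer transcripts.
Abca1, chr4:53159925-53159984: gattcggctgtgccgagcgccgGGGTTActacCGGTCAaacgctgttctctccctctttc
Srebf1, chr11:60210616-60210675: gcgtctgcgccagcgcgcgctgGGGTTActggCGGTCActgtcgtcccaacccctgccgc
Fasn, chr11:120824735-120824794: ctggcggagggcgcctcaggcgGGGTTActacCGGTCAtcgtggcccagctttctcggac
Abcg5 and Abcg8 lie head to head on chromosome 17 and are read away from each other, with RefSeq starts only 109 bases apart. The stretch between the starts is shown because it lies before both starts, and its capitals mark AGATAA, the motif of GATA factors, read here on the other strand as TTATCT.
Abcg5 to Abcg8, chr17:84683012-84683120, plus strand: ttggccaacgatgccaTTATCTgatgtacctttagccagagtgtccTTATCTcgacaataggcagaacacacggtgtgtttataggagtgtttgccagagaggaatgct
This stretch holds 2 copies of AGATAA, a motif chosen after the sequence was seen. The RefSeq windows of 300 bases that overlap here, 1 of each gene, hold 3 copies each on either strand, and 1.13% of all windows of that length hold 2 or more. No share was counted for stretches of 109 bases. In the annotation no exon covers it, although 1 transcript of Abcg8 that starts further back passes over it. A match of letters is a description and not a binding site.

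Each library held 17095433 to 28780140 read pairs on genes. The label liver was borne out by 7 hepatocyte markers, which summed to 36383 to 46803 CPM (read pairs per 1e6 pairs on genes, after TMM normalization) in AAV8-GFP and 43648 to 58564 CPM in AAV8-AGXT mice, while 6 markers of pancreas and adipose tissue summed to at most 0.414 CPM and Cpa1 among them had no count (0 counts allow up to 0.0917 to 0.207 CPM per mouse, for 3 counts and counting error only). All 7 hepatocyte markers were fitted higher in AAV8-AGXT mice, and Cps1, a urea cycle enzyme, passed (log2 fold change 0.96, adjusted p = 0.0279 from edgeR, in 11 of 15 alternative analyses, but not without mouse 303, 311, 314 or 319, and 0.117 without mouse 311). The 7 stellate cell and fibroblast markers summed to 459 to 795 CPM in AAV8-GFP and 203 to 522 CPM in AAV8-AGXT mice. Of these, 6 were fitted lower and 1 higher (median log2 fold change -0.67). An unadjusted p under 0.05 by edgeR was reached by 5 (26.2% of all tested genes), and 4 had groups that did not overlap (16.6%). Only Acta2 was called, and it was lower (log2 fold change -0.99, adjusted p = 0.0427 from edgeR, passing in 6 of 15 alternative analyses and in none with a mouse left out, where it was 0.0575 to 0.116). Of 6 endothelial, 5 cholangiocyte and 6 lymphocyte markers 0 passed, where edgeR called 4.35% of all tested genes. All 5 cholangiocyte markers were fitted lower (median log2 fold change -1.13), and 4 had an unadjusted p under 0.05 by edgeR (26.2% of all tested genes). The lymphocyte markers were fitted lower for 5 and higher for 1 (median -0.67), and all 6 endothelial markers were fitted higher (median 0.23). Endogenous mouse Agxt had 148 to 179.9 CPM in the AAV8-GFP and 201 to 405 CPM in the AAV8-AGXT mice (log2 fold change 0.90, adjusted p = 0.0489 from edgeR, passing in 4 of 15 alternative analyses and, with 1 mouse left out, only without mouse 309). Human AGXT is not in the mouse annotation, and whether its reads added to the mouse gene was not tested. The library of AAV8-AGXT mouse 308 stood apart, with 56.3% of tallied read pairs on genes against 62.4% to 69.1% in the others. Its summed CPM of 12 macrophage markers was also the lowest, 238 against 487 to 941 in the other 7 mice.

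None of the 10 genes passed an adjusted p of 0.05 in either direction by edgeR's quasi-likelihood test, and DESeq2 called 1 and limma-voom 0 of them. Over all 15248 genes tested, edgeR called 4.35% (2.45% higher and 1.90% lower in AAV8-AGXT mice). At an unadjusted p under 0.05, 3 of the 10 stood out, Abca1, Nr1h3 and Soat2, where 26.2% of all tested genes did. In none of the 10 were the groups separated mouse by mouse, against 16.6% of all tested genes (8.93% higher and 7.63% lower). The median log2 fold change of the 10 was 0.18 and that of all tested genes 0.018, with 6 fitted above and 4 below 0. In whole liver, fewer cells of a type and less RNA per cell cannot be told apart for any of them.

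**Figure D1:**
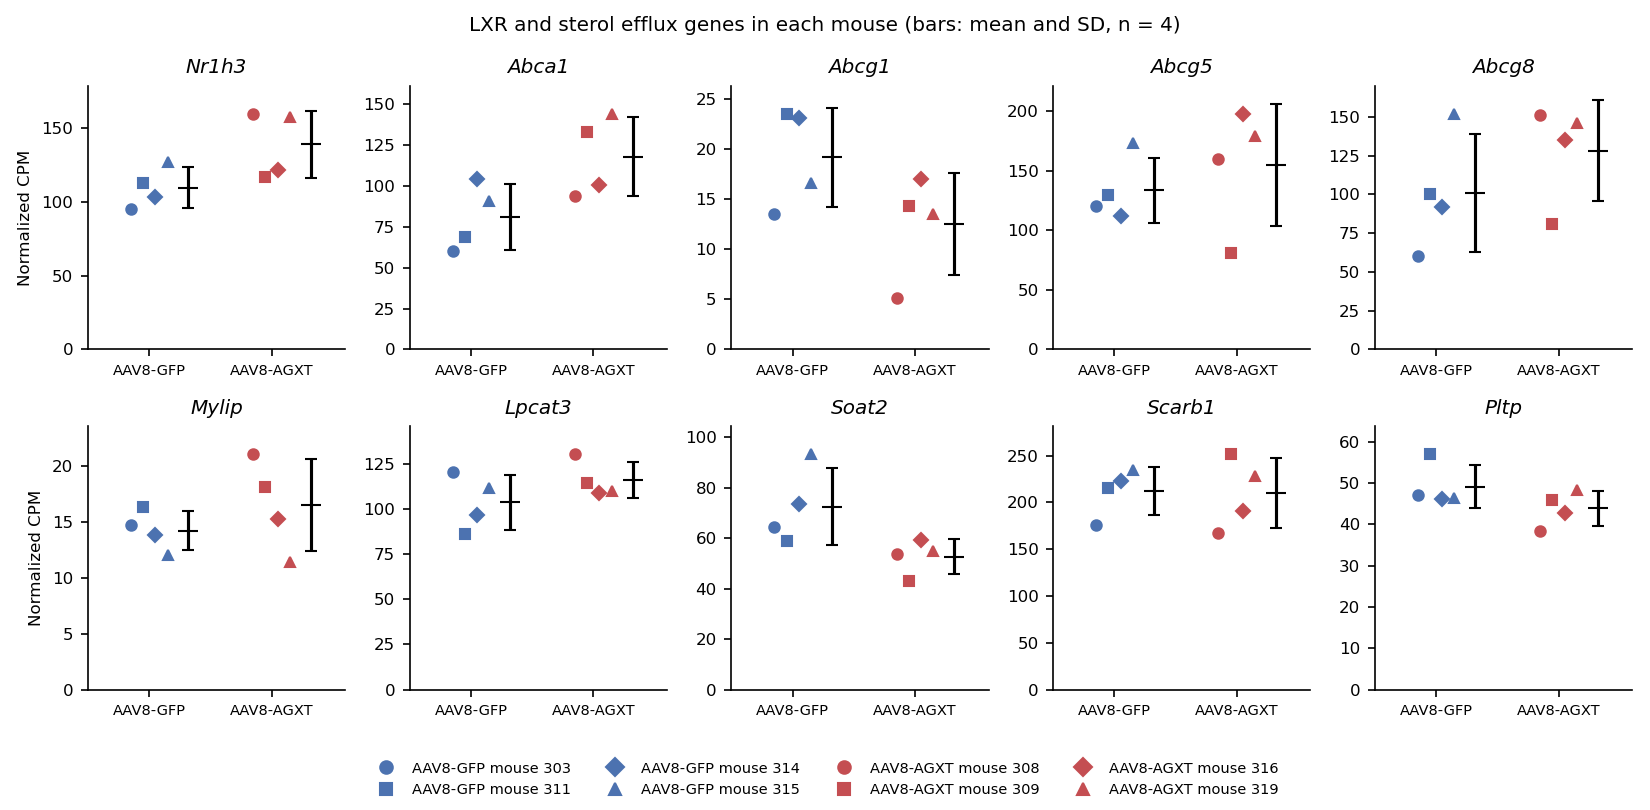
Normalized CPM (vertical axes, starting at 0) of the 10 genes in each of the 4 AAV8-GFP (blue) and 4 AAV8-AGXT (red) mice, with the group mean and SD as black bars. The groups overlap in every panel, and only narrowly for Soat2, where the highest AAV8-AGXT mouse, at 59.2 CPM, lies just over the lowest AAV8-GFP mouse, at 58.6 CPM.

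Nr1h3 (ENSMUSG00000002108, chromosome 2, 91184061 to 91202834), the receptor itself, had 95.2, 113, 103 and 127 CPM in AAV8-GFP mice 303, 311, 314 and 315. In AAV8-AGXT mice 308, 309, 316 and 319 it had 159.7, 117, 122 and 158 CPM. Mice 308 and 319 lay above all AAV8-GFP mice, and the other 2 within their range. edgeR fitted a log2 fold change of 0.34 (standard error 0.14, 95% interval 0.023 to 0.66), with an adjusted p of 0.165. The gene shares 34 exonic bases with Gm13783 on the same strand.

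The receptor's obligate partner gene Rxra had the larger difference. It had 292 to 401 CPM in AAV8-GFP and 485 to 714 CPM in AAV8-AGXT mice, and the groups did not overlap. Its log2 fold change was 0.67 (standard error 0.16) and its adjusted p of 0.0502 from edgeR fell just short of the threshold. Over the alternatives its adjusted p ran from 0.00214 to 0.169 and passed in 4 of 15. Among the 10 partners and co-regulators of LXR, which include Nr1h2, the gene of LXRβ, and the co-repressor Ncor1, 0 passed by edgeR, 3 had an unadjusted p under 0.05 (26.2% of all tested genes), and the median log2 fold change was 0.069. The hepatocyte markers given above were fitted higher in the same mice, and their part in the Rxra value was not tested.

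Abca1 (ENSMUSG00000015243, chromosome 4, 53030787 to 53159895) had 60.2, 68.5, 104 and 90.9 CPM in AAV8-GFP mice 303, 311, 314 and 315. It had 93.9, 133, 101 and 144 CPM in AAV8-AGXT mice 308, 309, 316 and 319. Mice 309 and 319 lay above all AAV8-GFP mice, while 308 and 316 lay below AAV8-GFP mouse 314. Its log2 fold change came to 0.54 (standard error 0.20, 95% interval 0.096 to 0.99), with an adjusted p of 0.127 from edgeR.

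Abcg1 (ENSMUSG00000024030, chromosome 17, 31057675 to 31117988) had 13.5, 23.5, 23.2 and 16.7 CPM in AAV8-GFP mice 303, 311, 314 and 315. In AAV8-AGXT mice 308, 309, 316 and 319 it had 5.18, 14.3, 17 and 13.5 CPM. Mouse 308 was the lowest by a wide margin, and the remaining 3 AAV8-AGXT mice overlapped the lower AAV8-GFP mice. On the log2 scale the fold change was -0.61 (standard error 0.32, 95% interval -1.32 to 0.094), with an adjusted p of 0.252 from edgeR. Without mouse 308 it was -0.38, with an adjusted p of 0.313, within a range of 0.150 to 0.484 over all alternatives.

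Abca1 and Abcg1, the paired exporters to apolipoprotein A-I and to HDL, thus had fitted fold changes of opposite sign. To compare them without any library scaling, the ratio of their read-pair counts, not corrected for length, was taken within each mouse. Abca1 counts were 4.46, 2.92, 4.49 and 5.45 times those of Abcg1 in AAV8-GFP mice 303, 311, 314 and 315. They were 18.1, 9.28, 5.92 and 10.6 times those of Abcg1 in AAV8-AGXT mice 308, 309, 316 and 319. Every AAV8-AGXT mouse had a higher ratio than every AAV8-GFP mouse. Among single genes, 16.6% of all tested had groups that did not overlap. No such share was counted over ratios of other genes. Both genes were chosen with earlier results of these data known, so the test below is no independent support. The mean log2 ratio was 2.08 ± 0.38 (SD, n = 4) in AAV8-GFP and 3.34 ± 0.67 (SD, n = 4) in AAV8-AGXT mice. The difference of 1.26 had a p of 0.0286 by a two-sided exact permutation test, the smallest that 4 mice against 4 can give, and 0.0857 after adjustment over the 3 ratios tested, and so failed the correction. Leaving out any 1 mouse gave differences between 0.98 and 1.52.

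**Figure D2:**
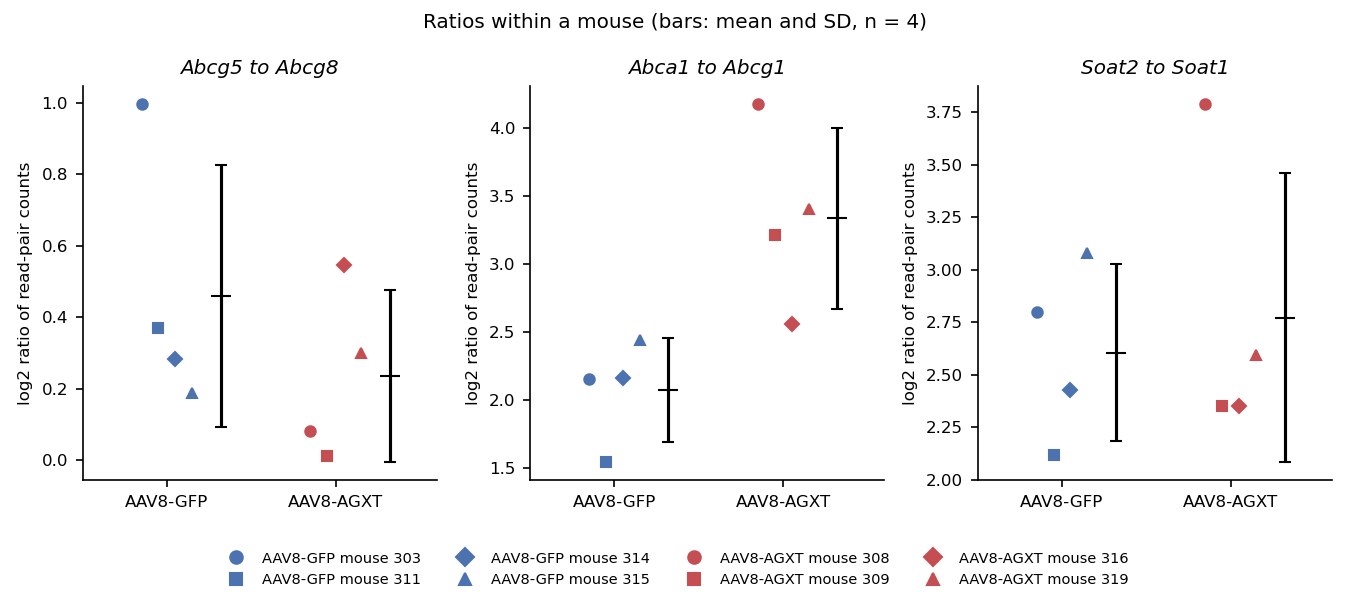
Log2 ratios of read-pair counts within each mouse for Abcg5 to Abcg8, Abca1 to Abcg1 and Soat2 to Soat1, with the group mean and SD as black bars. The Abca1 to Abcg1 ratio separates the groups, with AAV8-GFP mice up to 2.45 and AAV8-AGXT mice from 2.56, and the other ratios overlap.

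Abcg1 is also a macrophage gene, and macrophage markers were read beside it. The summed level of the 12 macrophage markers was 542 to 941 CPM in AAV8-GFP and 238 to 840 CPM in AAV8-AGXT mice. None of the 12 was called, 7 were fitted lower and 5 higher, and none was at 0 in all mice. Their median log2 fold change was -0.57. Of the 12, 3 had groups that did not overlap (16.6% of all tested genes), and 5 had an unadjusted p under 0.05 by edgeR (26.2%). The markers differed in sign, as a pair chosen after its values were seen shows. The lysosomal macrophage gene Cd68 had 42.6 to 68.4 CPM in AAV8-GFP and 9.18 to 40.3 CPM in AAV8-AGXT mice without overlap. The Kupffer cell gene Clec4f had 62.3 to 118 CPM and 97.1 to 215 CPM, and its groups overlapped. For Clec4f only mouse 319 lay above all AAV8-GFP mice (log2 fold change 0.45, adjusted p = 0.369 from edgeR). The part of these cells in the Abcg1 value was not tested.

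**Figure D3:**
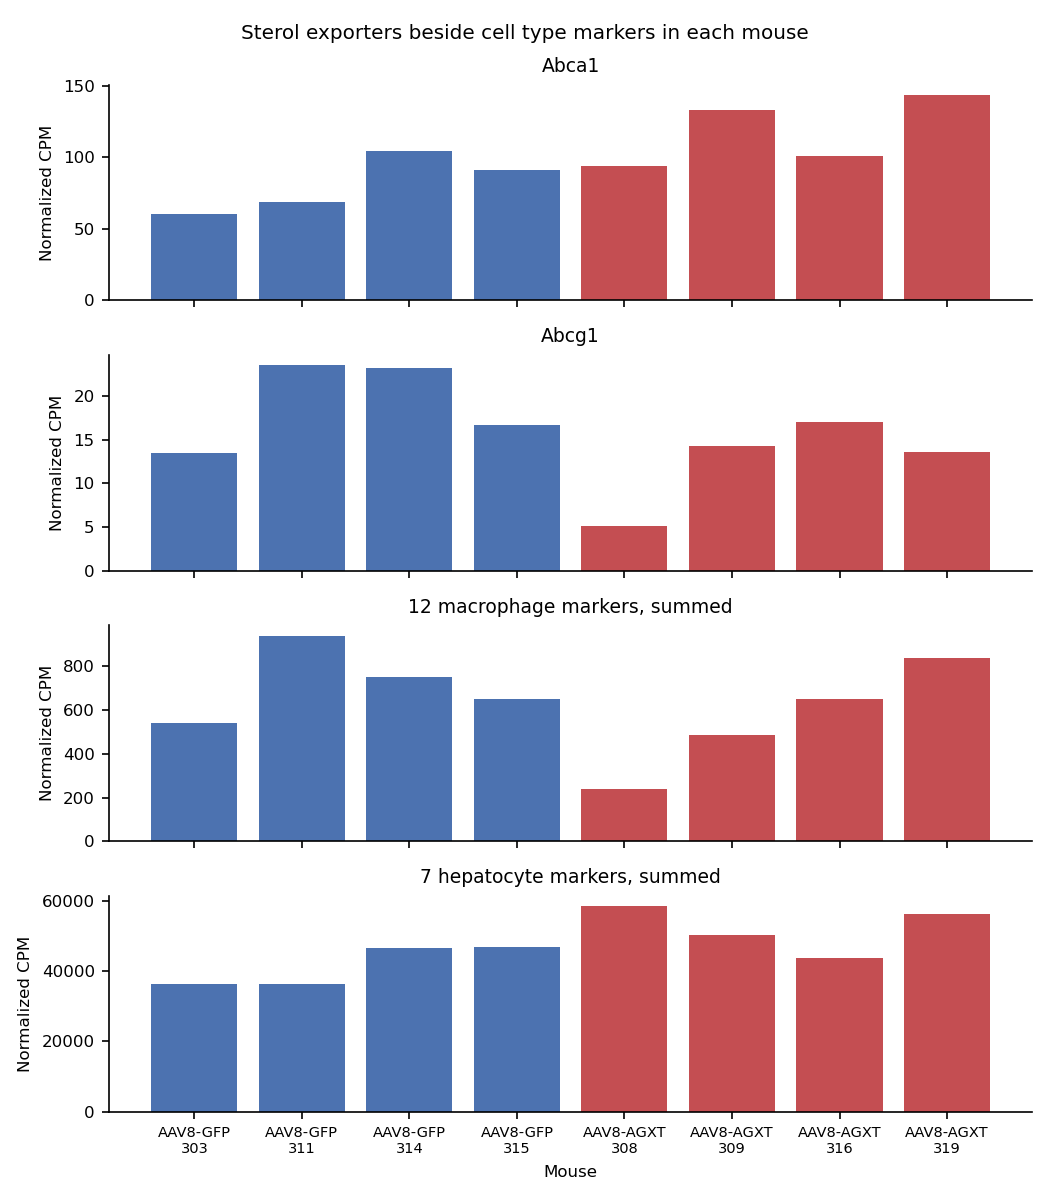
Bars give normalized CPM (axes from 0) of Abca1, of Abcg1, and of the summed macrophage and hepatocyte markers in each mouse, AAV8-GFP in blue and AAV8-AGXT in red. Mouse 308 has the lowest Abcg1 (5.18 CPM) and the lowest macrophage sum (238 CPM) but an Abca1 of 93.9 CPM. The order does not hold in every mouse. AAV8-AGXT mouse 319 has an Abcg1 of 13.5 CPM at a macrophage sum of 840 CPM, and AAV8-GFP mouse 303 has 13.5 CPM at 542 CPM.

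The biliary exporter genes showed no separation. Abcg5 (ENSMUSG00000040505, chromosome 17, 84658234 to 84683011) had 120.4, 129, 112 and 173 CPM in AAV8-GFP mice 303, 311, 314 and 315. It had 160.2, 81.4, 198 and 179.6 CPM in AAV8-AGXT mice 308, 309, 316 and 319. The AAV8-AGXT mice spanned the whole AAV8-GFP range, with mouse 309 the lowest of all 8. The fitted change, on the log2 scale, was 0.21 (standard error 0.25, 95% interval -0.35 to 0.77, adjusted p = 0.633 from edgeR), and -0.023 when scaled by total counts.

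Its partner Abcg8 (ENSMUSG00000024254, chromosome 17, 84676302 to 84700333) had 60.3, 100.1, 91.8 and 152 CPM in AAV8-GFP mice 303, 311, 314 and 315. It had 151, 80.7, 135 and 146 CPM in AAV8-AGXT mice 308, 309, 316 and 319. No AAV8-AGXT mouse exceeded AAV8-GFP mouse 315, and mouse 309 was again the lowest of its group. The groups differed by a log2 fold change of 0.34 (SE 0.28, 95% interval -0.27 to 0.96, adjusted p = 0.455 from edgeR). The promoter stretch between the genes is printed above, and the genes also share 82 exonic bases on opposite strands, whose reads may have been counted for either or neither. Within a mouse, Abcg5 counts were 1.01 to 2.0 times those of Abcg8, and the highest ratio was that of AAV8-GFP mouse 303. The log2 ratio averaged 0.46 ± 0.37 (SD, n = 4) in AAV8-GFP and 0.24 ± 0.24 (SD, n = 4) in AAV8-AGXT mice. The difference had a p of 0.400 by a two-sided exact permutation test (0.600 adjusted over the 3 ratios).

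Mylip (ENSMUSG00000038175, chromosome 13, 45389742 to 45412022) encodes IDOL, a ubiquitin ligase that limits cholesterol uptake. It had 14.7, 16.3, 13.8 and 12 CPM in AAV8-GFP mice 303, 311, 314 and 315. In AAV8-AGXT mice 308, 309, 316 and 319 it had 21.1, 18.1, 15.3 and 11.4 CPM. AAV8-AGXT mice held both the highest and the lowest value. edgeR fitted a log2 fold change of 0.21 (standard error 0.18, 95% interval -0.20 to 0.62, adjusted p = 0.508), and -0.040 when scaled by total counts.

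Lpcat3 (ENSMUSG00000004270, chromosome 6, 124663027 to 124704418) encodes the enzyme that puts polyunsaturated fatty acids into phosphatidylcholine, and it had the steadiest of the AAV8-AGXT values, with a coefficient of variation of 8.57%. It had 121, 86.4, 96.9 and 112 CPM in AAV8-GFP mice 303, 311, 314 and 315 and 130.5, 114, 109 and 110.2 CPM in AAV8-AGXT mice 308, 309, 316 and 319. Mouse 308 alone lay above all AAV8-GFP mice. Its log2 fold change came to 0.16 (standard error 0.13, 95% interval -0.12 to 0.44, adjusted p = 0.455 from edgeR), and -0.080 when scaled by total counts. Lpcat3 shares 334 exonic bases with Emg1 on the other strand, and because the strand setting of the counting is not given in the sources used here, its value is uncertain.

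Soat2 (ENSMUSG00000023045, chromosome 15, 102150526 to 102163469), the gene of ACAT2, which esterifies cholesterol for storage and lipoprotein export, had the smallest p of the 10. It had 64.2, 58.6, 73.6 and 93.2 CPM in AAV8-GFP mice 303, 311, 314 and 315. In AAV8-AGXT mice 308, 309, 316 and 319 it had 53.5, 42.9, 59.2 and 55.0 CPM. Of the AAV8-AGXT mice 3 lay below all AAV8-GFP mice, and mouse 316 lay just above the lowest of them. On the log2 scale the fold change was -0.46 (standard error 0.16, 95% interval -0.81 to -0.11), with an unadjusted p of 0.0151 and an adjusted p of 0.106 from edgeR. Soat2 was the only gene of the 10 to pass under any alternative, with an adjusted p of 0.0493 by the DESeq2 Wald test and of 0.0348 in edgeR with total counts, in a range of 0.0348 to 0.187 over all 15.

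Its paralog Soat1, the esterifying enzyme of macrophages and other cells, had 9.22 to 13.7 CPM in AAV8-GFP and 3.87 to 11.6 CPM in AAV8-AGXT mice. Soat2 counts, not corrected for length, were 4.33 to 8.45 times those of Soat1 in AAV8-GFP mice. In AAV8-AGXT mice they were 5.10 to 6.04 times those of Soat1 apart from mouse 308, where they were 13.8 times. The mean log2 ratio was 2.61 ± 0.42 in AAV8-GFP and 2.77 ± 0.69 in the AAV8-AGXT group (SD over 4 mice; two-sided exact permutation test, p = 0.743, also 0.743 adjusted over the 3 ratios). The difference of 0.17 became -0.17 without mouse 308.

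Scarb1 and Pltp act on circulating HDL. Scarb1 (ENSMUSG00000037936, chromosome 5, 125277087 to 125341094), the HDL receptor that takes up cholesteryl esters, had 176, 215, 223 and 235 CPM in AAV8-GFP mice 303, 311, 314 and 315. It had 168, 251, 191 and 229 CPM in AAV8-AGXT mice 308, 309, 316 and 319. The lowest and the highest value were both in AAV8-AGXT mice. The fitted change, on the log2 scale, was -0.017 (standard error 0.15), and its 95% interval of -0.36 to 0.32 spans folds of 0.780 to 1.25 (adjusted p = 0.960 from edgeR).

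Pltp (ENSMUSG00000017754, chromosome 2, 164839518 to 164857711), the plasma phospholipid transfer protein, had 47.1, 57.0, 46.2 and 46.4 CPM in AAV8-GFP mice 303, 311, 314 and 315. It had 38.5, 45.8, 42.8 and 48.3 CPM in AAV8-AGXT mice 308, 309, 316 and 319. Of the AAV8-AGXT mice 3 lay below all AAV8-GFP mice, and mouse 319 was second only to mouse 311. The groups differed by a log2 fold change of -0.16 (standard error 0.11, 95% interval -0.41 to 0.078, adjusted p = 0.366 from edgeR). Pltp shares 495 of its 2562 exonic bases with Ctsa on the other strand and is uncertain for the same reason as Lpcat3.

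Levels were also set side by side per kilobase of exon. The length used was that of all annotated exons of a gene together, so the order between genes is only rough. It also carries the uncertainty from shared exonic bases given above. In AAV8-GFP mice it began with Abcg5 at 49.3 ± 10.04 and Nr1h3 at 43.6 ± 5.52 CPM per kilobase (SD, n = 4). Soat2, Lpcat3, Abcg8, Scarb1 and Pltp followed between 32.7 and 19.2 CPM per kilobase, and each of these overlapped its neighbour in the order. Abca1 at 7.81 ± 1.94, Mylip at 4.40 ± 0.55 and Abcg1 at 2.63 ± 0.68 CPM per kilobase ended it, each separated from its neighbours in every mouse. In AAV8-AGXT mice Soat2 stood at place 6 in place of 3, at 23.8 ± 3.13 CPM per kilobase. Its range of 19.4 to 26.8 there overlapped those of Scarb1 (19.7 to 29.6) and Abcg8 (21.5 to 40.3) before it. It did not overlap that of Lpcat3 (33.3 to 39.9). The last 4 places were held by Pltp, Abca1, Mylip and Abcg1 as before.

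The genes around the pathway were read from 5 further lists. Over all tested genes, 2.45% were called higher and 1.90% lower, 26.2% had an unadjusted p under 0.05 and 16.6% had groups that did not overlap. Of 14 other LXR targets, 1 was lower and 0 were higher by edgeR's adjusted p, 7 had an unadjusted p under 0.05 and 3 had groups that did not overlap, with a median log2 fold change of -0.20. The one called was Gramd1b, which encodes an endoplasmic reticulum protein that carries cholesterol in from the plasma membrane. It had 18, 23.3, 21.1 and 14.1 CPM in AAV8-GFP mice 303, 311, 314 and 315 and 4.97, 9.31, 10.5 and 7.22 CPM in AAV8-AGXT mice 308, 309, 316 and 319. The groups did not overlap, and Gramd1b fell by 1.25 on the log2 scale (standard error 0.24, adjusted p = 0.0341 from edgeR, passing in 11 of 15 alternatives, but not without mouse 303, 311, 314 or 319, and reaching 0.126 without mouse 311). It shares 198 exonic bases with antisense genes, and like Abcg1 it was lowest in mouse 308.

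Srebf1 and Fasn, each with a promoter window that holds the letters shared with Abca1, had fitted fold changes of the opposite sign to Abca1. Neither passed. For Srebf1 only the window at the start 60210471 holds the letters, and those at 60222581 and 60220627 do not. Counts were taken per gene, so the Srebf1 fold change cannot be assigned to any single start. Srebf1, the gene of the lipogenic factor SREBP1, had 111 to 241 CPM in AAV8-GFP and 60.3 to 123 CPM in AAV8-AGXT mice (log2 fold change -0.81 with an SE of 0.28, edgeR adjusted p = 0.104, from 0.0302 to 0.183 over the alternatives). Fasn, fatty acid synthase, had 229 to 315 CPM and 136 to 207 CPM without overlap (log2 fold change -0.59 with an SE of 0.17, edgeR adjusted p = 0.0732, from 0.00961 to 0.169 over the alternatives).

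**Figure D4:**
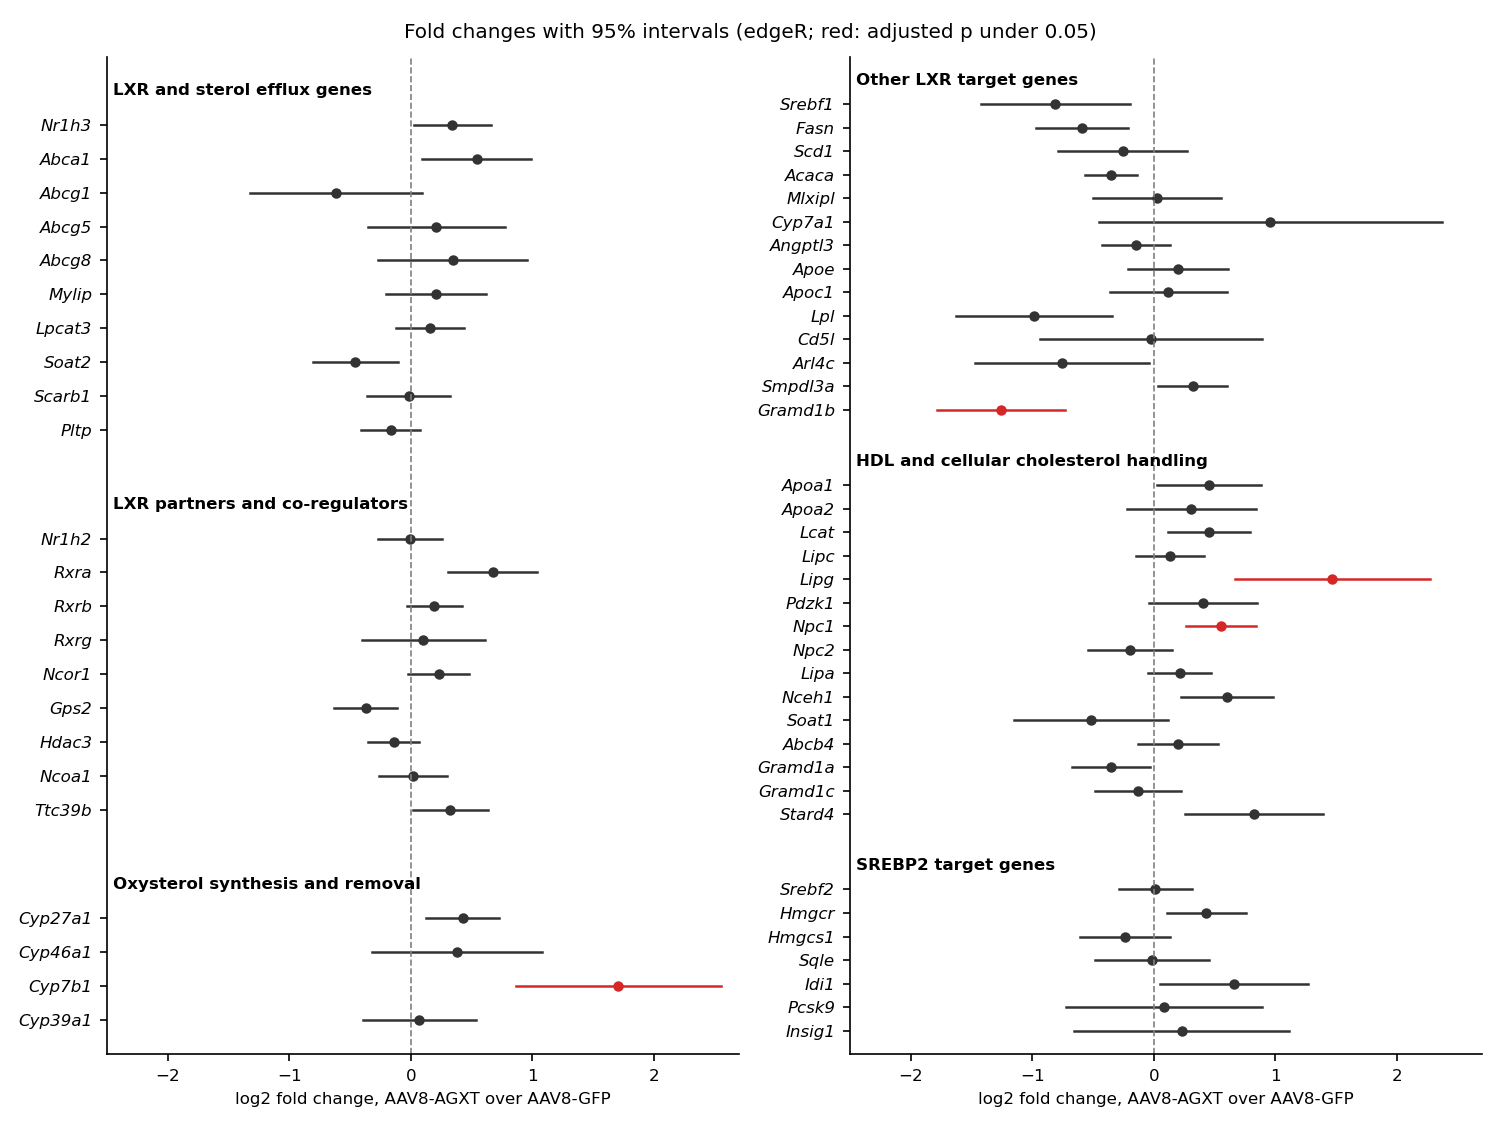
Log2 fold changes of AAV8-AGXT over AAV8-GFP (points) with 95% intervals (lines) from edgeR for the 10 genes and for most tested genes of 5 related lists, red where the adjusted p is under 0.05. No interval of the 10 genes is red, Abca1 lies at 0.54 and Abcg1 at -0.61, and the red genes are Cyp7b1, Gramd1b, Lipg and Npc1.

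Of the 7 genes that make or remove oxysterols, 4 were tested and 1 passed by edgeR (4.35% of all tested genes). Of the 4, 2 had an unadjusted p under 0.05 (26.2% of all tested genes) and 2 had groups that did not overlap (16.6%). Cyp7b1, the hydroxylase that removes side-chain oxysterols on the way to bile acids, had 131, 76.7, 34.8 and 119.6 CPM in AAV8-GFP mice 303, 311, 314 and 315. In AAV8-AGXT mice 308, 309, 316 and 319 it had 376, 289.6, 183 and 333 CPM, all above the AAV8-GFP mice. Cyp7b1 rose by 1.71 on the log2 scale (standard error 0.38, adjusted p = 0.0425 from edgeR). It passed in 9 of 15 alternatives, failed when any mouse but 315 or 316 was left out, and reached 0.149 without mouse 311.

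Of 16 genes of HDL and of cellular cholesterol handling, 15 were tested. By edgeR 2 were higher (2.45% of all tested genes) and 0 lower (1.90%). An unadjusted p under 0.05 was reached by 7 (26.2% of all tested genes), and 5 had groups that did not overlap (16.6%). The median log2 fold change was 0.31. Npc1, which exports cholesterol from lysosomes, had 80.3 to 111 CPM in AAV8-GFP and 124 to 159.6 CPM in AAV8-AGXT mice, without overlap. It rose by 0.55 on the log2 scale (standard error 0.13, adjusted p = 0.0461 from edgeR), shares 601 exonic bases with genes on the other strand, and passed in 6 of 15 alternatives. With 1 mouse left out it passed only without mouse 315, and it had an adjusted p of 0.153 without mouse 311. Lipg, endothelial lipase, which hydrolyses HDL phospholipid, had 3.51 to 9.92 CPM and 11.5 to 23 CPM, without overlap. It rose by 1.47 on the log2 scale (standard error 0.36, adjusted p = 0.0498 from edgeR) and passed in 3 of 15 alternatives, none of them with a mouse left out, when its adjusted p was 0.0519 to 0.116. Of the 8 genes of the SREBP2 list, which includes enzymes of cholesterol synthesis, none passed, 3 had an unadjusted p under 0.05 (26.2% of all tested genes) and the median log2 fold change was 0.16.

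The choice of scaling mattered to these small differences. Normalization factors were 1.02 to 1.14 in AAV8-GFP and 0.83 to 1.00 in AAV8-AGXT mice, so scaling by total counts alone moved the median log2 fold change of all tested genes from 0.018 to -0.22. The median of the 10 genes moved with it, from 0.18 to -0.060.

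**Figure D5:**
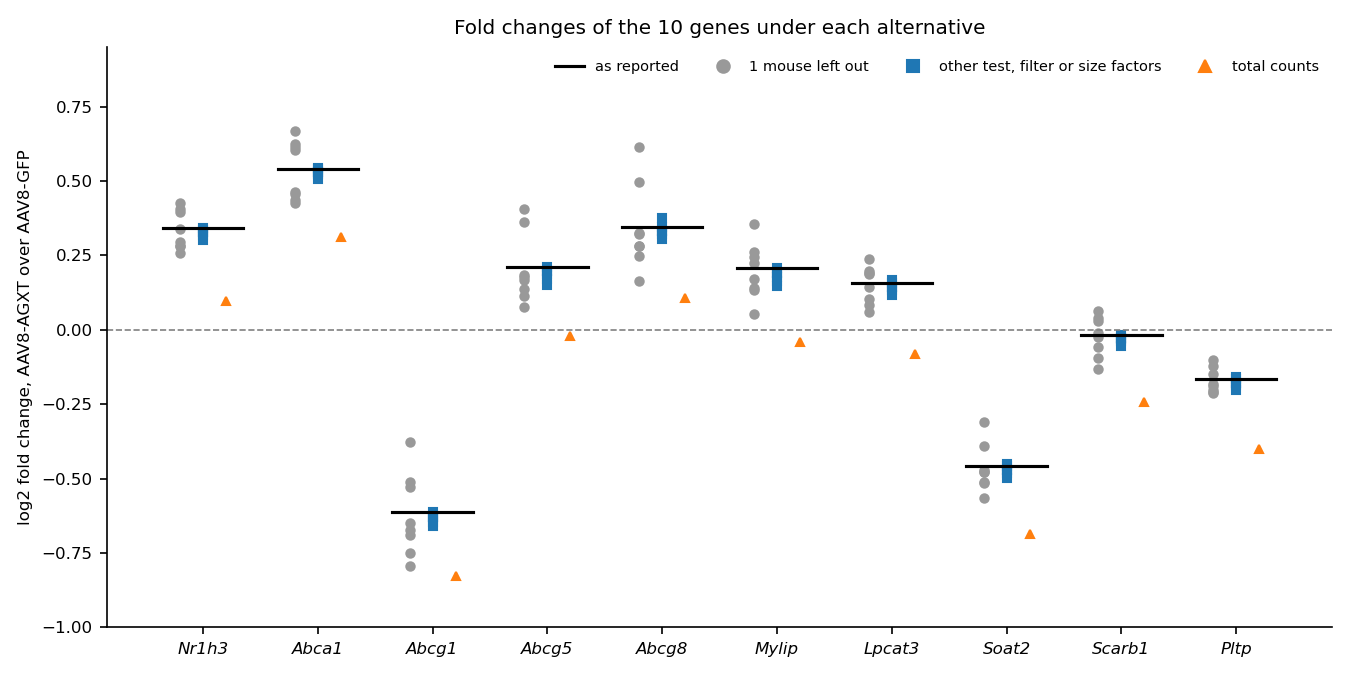
Log2 fold changes of the 10 genes as reported (black lines), with 1 mouse left out (grey circles), under other tests, filters and size factors (blue squares) and with total counts (orange triangles). Abca1 stays above 0 and Abcg1, Soat2 and Pltp below it throughout, whereas total counts take Abcg5, Mylip and Lpcat3 to the other side of 0 and leaving out 1 mouse does so for Scarb1.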

How the data were processed

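Poly(A)-selected RNA from 8 livers was sequenced as read pairs from stranded libraries. The submitters' processing notes name FastQC 0.11.8, Trimmomatic 0.35, HISAT2 2.1.0.13, HTSeq and GRCm38. The authors deposited raw counts of read pairs per Ensembl gene for each mouse. The strand option of the counting is not given in the sources used here. Rows that name no gene were left out of library sizes, and 30.9% to 43.7% of the tallied pairs lay in them. Gene names and exon lengths came from GENCODE M21.

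Counts were filtered (filterByExpr), scaled (TMM) and tested with the quasi-likelihood test of edgeR 4.0.16 in R 4.3.3, with no covariate, on 15248 genes, and p-values were Benjamini-Hochberg adjusted over all of them (threshold 0.05). Values are TMM-normalized CPM. Fold changes are AAV8-AGXT over AAV8-GFP, and intervals (95%) come from the unshrunken coefficient. Ratios of counts within a mouse were compared by exact permutation. The fit was checked on simulated counts, where a limit on the share of false calls was set for edgeR and limma-voom but not for DESeq2. DESeq2 1.42.0, limma-voom (limma 3.58.1), other scalings and filters and leaving out each mouse were alternatives, 15 in all.

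The members and the gene lists were chosen with earlier results of these data known. Named were all 10 members, each called gene of the other lists, at most the 3 most abundant genes of a pathway list, markers called or at 0 in all mice, and Agxt. Any other gene was chosen after its values were seen. A few list genes are counted in their lists but not reported here. Mice are separate animals, and each gave 1 library.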

Additional observations from a re-analysis of the deposited data

Results flagged for a closer look

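In groups of 4 mice, a value was singled out where the gap to its nearest neighbour, divided by the range of the group, exceeded Dixon's critical value for 95%. Of 26 groups examined 2 held such a value, and chance alone gives about 5%. Pltp had 57.0 CPM in AAV8-GFP mouse 311, where the other 3 mice of the group had 46.2 to 47.1 CPM (gap over range 0.915). The log2 ratio of Soat2 to Soat1 was 3.79 in AAV8-AGXT mouse 308 and 2.35 to 2.59 in the other 3 mice of the group (gap over range 0.831).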

How the results depend on the processing

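Of 150 alternative values of the 10 genes, 144 had the direction reported and 2 passed the threshold where the reported value did not. Those 2 were Soat2, at -0.47 with DESeq2 and -0.69 with total counts, so that the count of the 10 called lower was 1 under each in place of 0. With total counts the log2 fold change was -0.023 for Abcg5, -0.040 for Mylip and -0.080 for Lpcat3, and the median of the 10 was -0.060. Scarb1, at -0.13 without AAV8-AGXT mouse 309, was at 0.039 without AAV8-GFP mouse 315, 0.064 without AAV8-AGXT mouse 308 and 0.029 without AAV8-AGXT mouse 316. With 1 mouse left out, the Soat2 to Soat1 difference ran from -0.17 (without mouse 308) to 0.32. The cause of these shifts was not tested, other than that total counts lower the fold changes of all genes. Over all genes, 374 were called higher and 290 lower, which became 1077 and 1054 with DESeq2 and 144 and 857 with total counts, the share of higher calls moving from 56.3% to 14.4%. With 1 mouse left out, 2 to 379 genes were called higher and 0 to 325 lower. The fewest calls came without AAV8-GFP mouse 311, where edgeR called 0 lower although 2663 genes had an unadjusted p under 0.05. Without mouse 314 the calls were 11 and 4, without mouse 319 12 and 2, without mouse 308 86 and 91, without mouse 303 114 and 79, and without mouse 316 226 and 185. No paired analysis was possible because the groups share no mouse numbers. Counts limit the precision most for Abcg1, with 75 to 768 read pairs per mouse.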

Other observations

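Further genes of cholesterol traffic, chosen after their values were seen, had groups that did not overlap without passing the adjusted p of edgeR. Nceh1, a cholesteryl ester hydrolase, averaged 45.4 ± 10.1 CPM with AAV8-GFP and 68.9 ± 10.8 CPM with AAV8-AGXT (SD over 4 mice, log2 fold change 0.60, edgeR adjusted p = 0.0720). Lcat, which esterifies cholesterol on HDL, had 355 ± 30.5 and 487 ± 89.3 CPM (log2 fold change 0.45, edgeR adjusted p = 0.0997). Cyp27a1, which makes an oxysterol and bile acid precursors, had 430.4 ± 34.5 and 579 ± 81.6 CPM (log2 fold change 0.43, edgeR adjusted p = 0.0868). Lipa, lysosomal acid lipase, had 266 ± 26.9 and 308 ± 18.3 CPM (log2 fold change 0.21, edgeR adjusted p = 0.279). Groups that did not overlap were found for 16.6% of all tested genes.

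Hsd3b7, a bile acid synthesis enzyme, had no count in any mouse and shares 1717 of its 2769 exonic bases with Gm49388 on the same strand and 1729 with 9430064I24Rik on the other. How reads on shared bases were counted is not given in the sources used here, and the 0 sets no upper limit on its expression.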
